A study of Mus musculus with 19 samples.

Results

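The expression of 10 genes of the G1 phase of the cell cycle was followed through ErbB2-driven mouse mammary tumours with and without the beta 1 and beta 3 integrins. They are the D cyclins Ccnd1, Ccnd2 and Ccnd3, their kinases Cdk4 and Cdk6, the E cyclins Ccne1 and Ccne2 with their kinase Cdk2, and the inhibitors Cdkn1b (p27) and Cdkn2c (p18). The 10 genes are a list by role, and no measured value enters the rule, but the list was chosen with earlier results of these data known. A probe set of their own was found for 9 of the 10, and these 9 are among the 14231 genes tested. The probe set for Ccne2 was shared with Ints8, so Ccne2 was not measured here.

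The 19 tumours came from MMTV-NIC mice. Their transgene couples activated ErbB2 to Cre recombinase under the MMTV promoter, which is active in the mammary epithelium. The groups were 6 tumours labelled double knockout (NIC itgb1 fl/fl itgb3 fl/fl), 4 Itgb1 knockouts (NIC itgb1 fl/fl), 4 Itgb3 knockouts (NIC itgb3 fl/fl) and 5 controls (NIC WT), all carrying the same ErbB2 and Cre transgene. Cells that make no Cre keep their integrin genes in this model. RNA was taken from whole flash frozen tumours at end burden, with their stroma, vessels and immune cells. Ages were not given. Replicate numbers used below follow the order of the samples within each group and are not in the labels. Every tumour has its own number in the labels, which do not say whether that number stands for a mouse. The p-values therefore reflect only the variation among these tumours, part of which may be technical. Levels are the deposited log2 intensities, on which a difference of 1 is a doubling, and the level of a probe set was not set against that of another.

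Itgb1 averaged 8.32 ± 0.48 (SD) in the labelled double knockouts and 8.70 ± 0.29 in the Itgb1 knockouts, against 10.16 ± 0.19 in controls. Among the labelled double knockouts it was highest in replicate 5 (9.20), above every Itgb1 knockout (at most 8.98) and below every control (at least 9.83). Itgb3 averaged 7.01 ± 0.48 in the Itgb3 knockouts and 8.12 ± 0.25 in controls, and the 4 Itgb3 knockouts lay below every control. In the labelled double knockouts Itgb3 averaged 8.13 ± 0.39 and was no lower than in controls (log2 difference 0.01, limma adjusted p = 0.986), a limit on every comparison with that group. The mean level of 10 luminal epithelial markers, among them Krt8 and Epcam, lay between 8.71 and 9.22 in every tumour. The markers Krt5, Krt14 and Adipoq were not among the genes tested.

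Progress through G1 depends on the retinoblastoma protein Rb, which holds back the E2F transcription factors. Cyclin D with Cdk4 or Cdk6, and then cyclin E with Cdk2, phosphorylate Rb and free E2F to switch on the genes of DNA replication. Cdkn2c belongs to the INK4 family, which blocks Cdk4 and Cdk6, whereas Cdkn1b blocks cyclin E with Cdk2. In cultured cells, adhesion through integrins is known to raise cyclin D1 and lower p27, and mice without cyclin D1 resist mammary tumours driven by ErbB2.

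None of the 9 genes passed the test, an adjusted p of 0.05 over all genes, in any comparison of a knockout group with control. The kinase gene Cdk6 came nearest: it averaged about 0.8 lower on the log2 scale in each of the 3 knockout groups. Between knockout groups, Ccnd2 alone passed, with a level 2.11-fold higher in the labelled double knockouts than in the Itgb3 knockouts.

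The counts of members are read against those over all 14231 genes (limma). For the labelled double knockouts against control, 55 genes (0.386%) passed and 0 of 9 members did, with 2398 genes (16.9%) and 4 members at an unadjusted p under 0.05. The count of 55 was 14 without control replicate 1 or without double knockout replicate 2 and 125 without double knockout replicate 5, the extremes on leaving out 1 array, and 2 with only these groups fitted. For the Itgb1 knockouts against control, 1 gene (0.00703%) passed and 0 members did, with 691 genes and 3 members at the unadjusted level. For the Itgb3 knockouts against control, 0 genes (0%) passed and so 0 members, with 874 genes and 2 members at the unadjusted level. These 3 comparisons use the same 5 control arrays.

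The median log2 difference of the 9 members was −0.01 in the labelled double knockouts, −0.12 in the Itgb1 knockouts and −0.28 in the Itgb3 knockouts against control. The medians of all genes in these comparisons were 0.03, 0.02 and −0.01. In that order, 4, 4 and 3 of the 9 members averaged above control. Members lay on both sides of control in every knockout group. Statements below on tumours that lie beyond all of another group were not counted over all genes, and are a description.

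**Figure D1:**
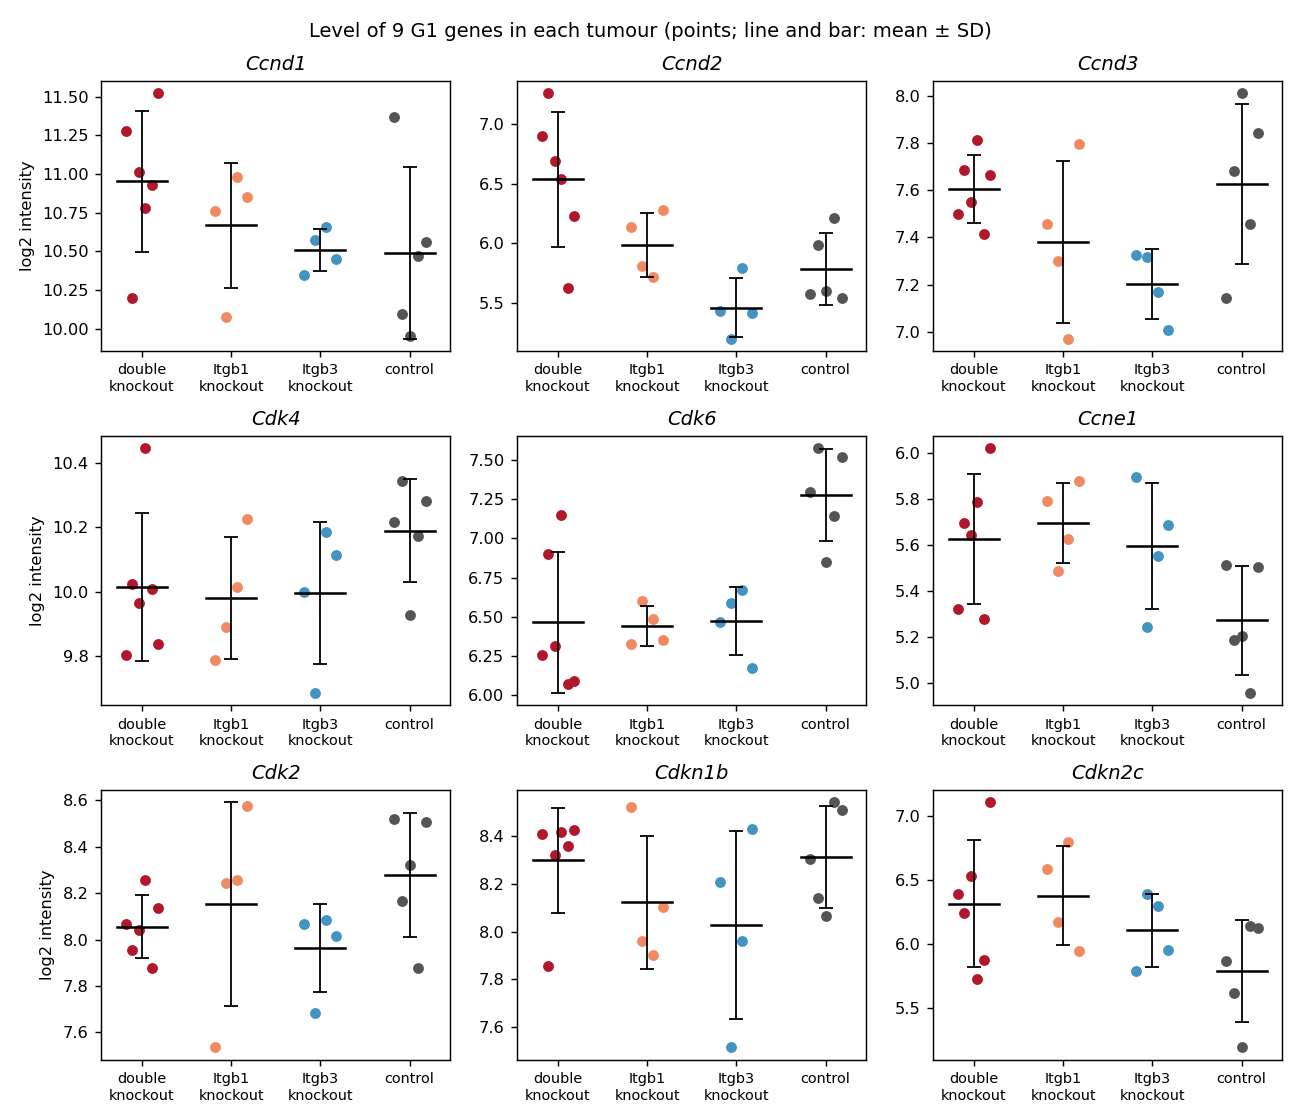
Log2 level of each of the 9 measured genes (vertical axes) in every tumour, by group, from labelled double knockout at the left to control at the right; points are tumours, and the line and bar are the group mean and SD. Cdk6 lies below the lowest control, 6.85, in 12 of 14 knockout tumours, and Ccnd2 is highest in the labelled double knockouts.

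Ccnd1 encodes cyclin D1, the D cyclin that mammary epithelium depends on. Its level ran from 10.20 to 11.52 in the 6 labelled double knockouts, with a median of 10.97. It was 10.07, 10.76, 10.85 and 10.98 in the Itgb1 knockouts and 10.35, 10.45, 10.57 and 10.66 in the Itgb3 knockouts, against 9.95, 10.09, 10.47, 10.56 and 11.37 in controls. All groups overlapped, and the spread among controls, 1.42, was wider than any difference between group means. The difference from control was 0.46 in the labelled double knockouts (95% interval −0.04 to 0.97), 0.18 in the Itgb1 knockouts (−0.39 to 0.74) and 0.02 in the Itgb3 knockouts (−0.54 to 0.58). With fibroblast and T cell marker levels as covariates, the difference in the labelled double knockouts was 0.75 (SE 0.226, adjusted p = 0.177). Of the 9 members Ccnd1 varied most within groups (SD 0.433, above that of 87.6% of the genes tested, whose median was 0.242).

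Ccnd2 encodes cyclin D2, a D cyclin also used by many stromal and immune cells. Its level ran from 5.62 to 7.26 in the labelled double knockouts, with a median of 6.61. It was 5.72, 5.81, 6.14 and 6.28 in the Itgb1 knockouts and 5.20, 5.41, 5.43 and 5.80 in the Itgb3 knockouts, against 5.54, 5.58, 5.61, 5.99 and 6.21 in controls. Apart from replicate 5 (5.62), every labelled double knockout lay above all Itgb3 knockouts and all controls.

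Ccnd2 rose by 1.08 on the log2 scale in the labelled double knockouts against the Itgb3 knockouts (SE 0.238, 2.11-fold, limma adjusted p = 0.0253). In this comparison 408 genes (2.87%) passed, 338 of them higher, so Ccnd2 was 1 of many genes that differed. That count was 56, 119, 126 and 66 without Itgb3 knockout replicate 1, 2, 3 or 4, 132 without double knockout replicate 1 and 227 without double knockout replicate 2. It was 231 with quantile normalization, 1226 with arrays centred on their medians and 1568 with array weights. The other 8 members did not pass. Of the 9 members 8 averaged above 0 in this comparison, with a median difference of 0.21 against 0.03 for all genes. Against control the difference in Ccnd2 was 0.75 (SE 0.223, adjusted p = 0.116). It passed without labelled double knockout replicate 5 (0.94, adjusted p = 0.0248). That tumour was the lowest of its group, so leaving it out could only widen the difference. With fibroblast and T cell marker levels as covariates the difference was 0.40 (SE 0.164, adjusted p = 0.288). Against the Itgb1 knockouts the difference was 0.55 (SE 0.238, adjusted p = 0.358).

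The call for Ccnd2 rested on several tumours. It ended without labelled double knockout replicate 1 (1.00, adjusted p = 0.0591) and without Itgb3 knockout replicate 1, 2 or 4 (0.99 to 1.07, adjusted p = 0.0686 to 0.0769). It also ended when only these 2 groups were fitted (adjusted p = 0.0534).

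Markers of other cell types differed between the same groups. The mean level of 10 such markers, among them Col1a1 and Pdgfra, ran from 6.39 to 8.13 in the labelled double knockouts and from 5.30 to 7.43 in the Itgb3 knockouts. It averaged 7.28 ± 0.24 (SD) in the Itgb1 knockouts and 6.93 ± 0.35 in controls. All 10 markers averaged higher in the labelled double knockouts than in the Itgb3 knockouts, with a median difference of 1.03, although 0 of 10 passed (8 at an unadjusted p under 0.05, as were 3009 of all genes, 21.1%). All 9 macrophage markers also averaged higher there, and 2 of them passed; their mean level ran from 7.12 to 8.04 in the labelled double knockouts and from 6.83 to 7.45 in the Itgb3 knockouts. All 9 endothelial markers averaged higher as well, with a median difference of 0.35, and 0 passed (4 at an unadjusted p under 0.05). The part of the macrophage and endothelial markers in the difference was not tested.

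**Figure D2:**
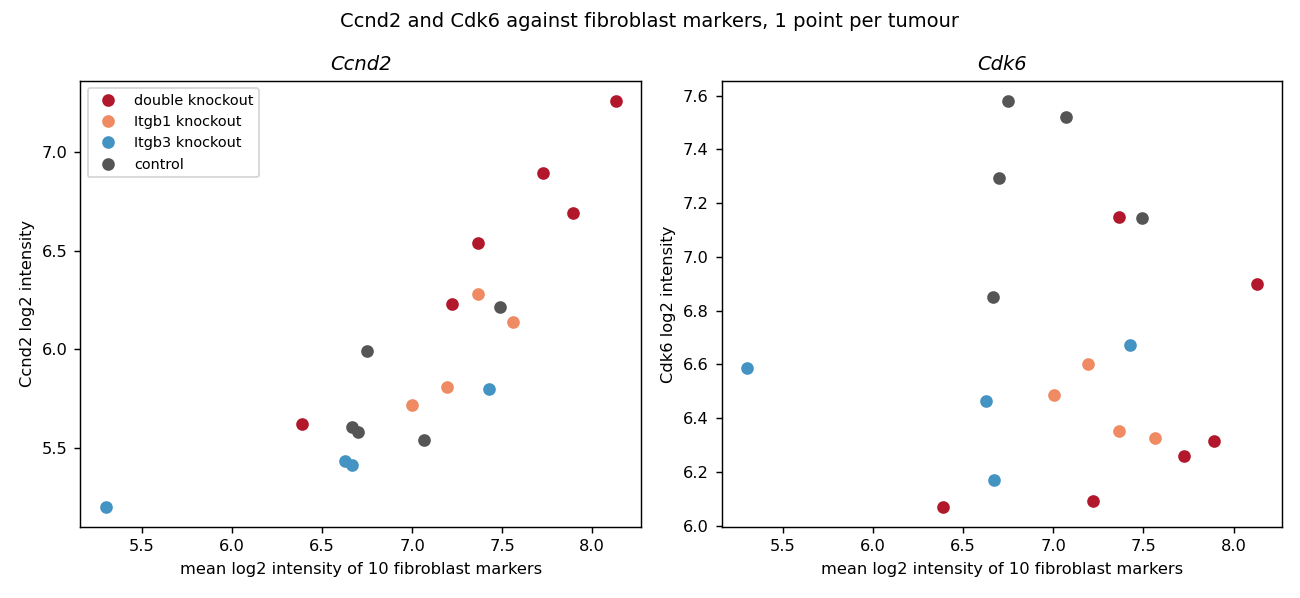
Log2 levels of Ccnd2 and Cdk6 (vertical axes) against the mean log2 level of 10 fibroblast markers (horizontal axes); points are the 19 tumours, coloured by group. Ccnd2 is highest in the labelled double knockouts with the most fibroblast marker signal (r within groups 0.80), whereas the Cdk6 points show no such slope (r within groups 0.20).

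Within groups, Ccnd2 followed the fibroblast markers from tumour to tumour. The correlation of deviations from group means over 19 tumours was r = 0.80 (permutation p = 2e-05, adjusted p = 0.00234 over 117 pairs of a member and a list). Spearman's rho was 0.80 (permutation p = 3e-04, adjusted p = 0.0351). Without Itgb3 knockout replicate 2 and labelled double knockout replicate 5, the tumours farthest out in the markers, r was 0.77. This was the only relation of the 117 to pass. The next for Ccnd2 were B and plasma cell markers (r = 0.73, permutation adjusted p = 0.0955) and macrophage markers (r = 0.63, permutation adjusted p = 0.261).

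With the mean fibroblast and T cell marker levels as covariates, the difference in Ccnd2 between the labelled double knockouts and the Itgb3 knockouts was 0.46 (SE 0.203, adjusted p = 0.393). In that fit 1 of the 14231 genes passed this comparison, against 408 without the covariates. In whole tumours, fewer cells of a type and less RNA per cell cannot be told apart.

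Ccnd3 encodes cyclin D3. Its level ran from 7.42 to 7.81 in the labelled double knockouts, with a median of 7.61. It was 6.97, 7.30, 7.46 and 7.80 in the Itgb1 knockouts and 7.01, 7.17, 7.31 and 7.32 in the Itgb3 knockouts, against 7.14, 7.46, 7.68, 7.84 and 8.01 in controls. All 6 labelled double knockouts lay above every Itgb3 knockout, by a mean of 0.40 (SE 0.162, adjusted p = 0.166), which was 0.21 with the same covariates. Of all genes 21.1% had an unadjusted limma p under 0.05 in this comparison, and the share that separated as fully was not counted. The Itgb3 knockouts overlapped the controls through control replicate 1 (difference −0.42, SE 0.168, adjusted p = 0.796).

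Cdk6 encodes a kinase partner of the D cyclins. Its level ran from 6.07 to 7.15 in the labelled double knockouts, with a median of 6.29. It was 6.33, 6.35, 6.49 and 6.60 in the Itgb1 knockouts and 6.17, 6.47, 6.59 and 6.67 in the Itgb3 knockouts, against 6.85, 7.14, 7.30, 7.52 and 7.58 in controls. All 8 tumours of the Itgb1 and Itgb3 knockouts lay below every control, and how many of all genes separate as fully was not counted. Labelled double knockout replicates 2 (6.90) and 4 (7.15) overlapped the controls, and the other 4 did not.

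The difference in Cdk6 from control was −0.81 in the labelled double knockouts (SE 0.185, limma adjusted p = 0.0577). It was −0.84 in the Itgb1 knockouts (SE 0.205, adjusted p = 0.982) and −0.80 in the Itgb3 knockouts (SE 0.205, adjusted p = 0.723). By p-value Cdk6 stood at rank 76, 6 and 17 of the 14231 genes in these comparisons. The mean of the 3 knockout groups against control, a comparison added after the values were seen, gave −0.82 (SE 0.160, adjusted p = 0.394, rank 2). It passed without double knockout replicate 4, the highest of its group (−0.86, adjusted p = 0.0446). In this added comparison 1 gene (0.00703%) and 0 members passed, with 955 genes and 3 members at an unadjusted p under 0.05.

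In the labelled double knockouts, Cdk6 passed without double knockout replicate 4, the highest of its group (−0.95, adjusted p = 0.0217). It also passed without control replicate 3, the lowest control (−0.92, adjusted p = 0.0371). Leaving out either tumour could only widen the difference. Within groups, the r of Cdk6 was 0.20 with fibroblast markers (permutation adjusted p = 0.827) and −0.12 with T and NK cell markers (permutation adjusted p = 0.885). With both as covariates the differences from control were −0.86, −0.88 and −0.76 in the labelled double, Itgb1 and Itgb3 knockouts.

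**Figure D3:**
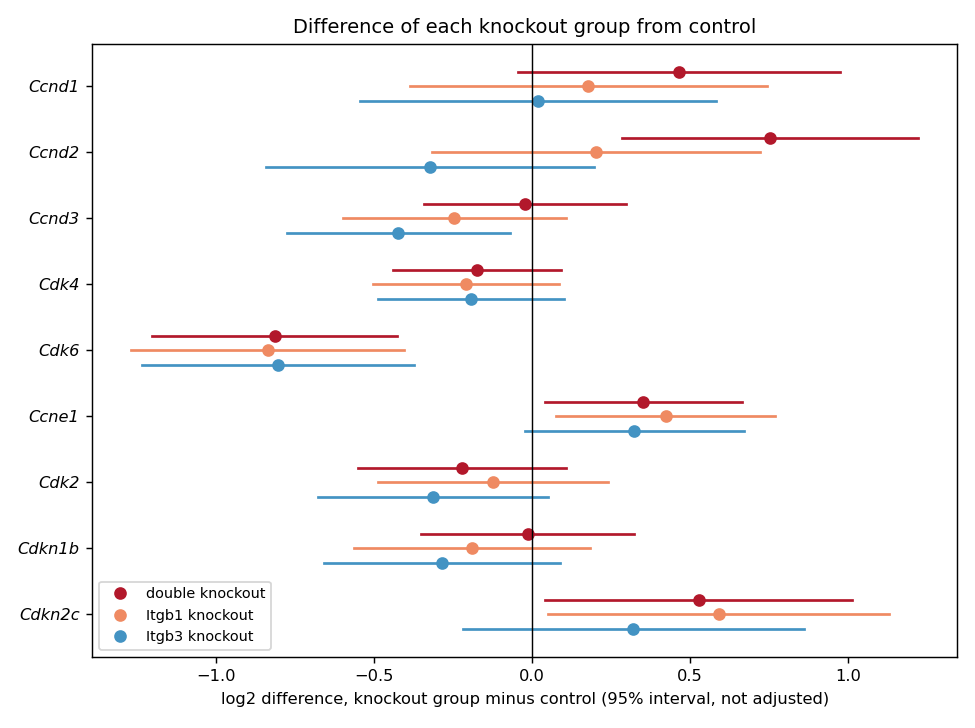
Log2 difference from control of each measured gene (rows), with its 95% interval, in the labelled double knockouts, Itgb1 knockouts and Itgb3 knockouts. The 3 Cdk6 intervals all lie below 0, and none of the differences passed the test.

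The promoter window of Cdk6 is shown because Cdk6 had the largest difference from control among the members. It runs from 250 bases before to 50 bases after a RefSeq start, at chr5:3343643-3343942 on the plus strand of GRCm38.p6. It holds none of the 4 E2F-type motifs described further on. The gene itself is annotated from position 3341004, upstream of this window, and no window at that position was held.
Cdk6 promoter: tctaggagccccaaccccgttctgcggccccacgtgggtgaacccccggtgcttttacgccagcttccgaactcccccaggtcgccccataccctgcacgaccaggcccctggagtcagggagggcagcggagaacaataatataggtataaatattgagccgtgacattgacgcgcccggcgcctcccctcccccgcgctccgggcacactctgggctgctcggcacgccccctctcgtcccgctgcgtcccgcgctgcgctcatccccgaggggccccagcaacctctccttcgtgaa

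Cdk4 encodes the other kinase partner of the D cyclins. The Cdk4 level ran from 9.80 to 10.45 in the labelled double knockouts, with a median of 9.99. It was 9.79, 9.89, 10.02 and 10.23 in the Itgb1 knockouts and from 9.69 to 10.18 in the Itgb3 knockouts, against 9.93, 10.17, 10.22, 10.28 and 10.35 in controls. All groups overlapped. The differences from control were −0.17 (95% interval −0.44 to 0.09), −0.21 (−0.50 to 0.08) and −0.19 (−0.49 to 0.10) in the labelled double, Itgb1 and Itgb3 knockouts. Cdk4 varied least of the 9 members within groups (SD 0.203).

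Ccne1 encodes cyclin E1, the partner of Cdk2 at the entry into S phase. Its level ran from 5.28 to 6.02 in the labelled double knockouts, with a median of 5.67. It was 5.49, 5.62, 5.79 and 5.88 in the Itgb1 knockouts and 5.24, 5.55, 5.69 and 5.89 in the Itgb3 knockouts, against 4.96, 5.18, 5.20, 5.50 and 5.51 in controls. Above every control lay 10 of the 14 knockout tumours, with no such count over all genes. The difference from control was 0.35 in the labelled double knockouts (SE 0.149, adjusted p = 0.242), 0.42 in the Itgb1 knockouts (SE 0.165, adjusted p = 0.982) and 0.32 in the Itgb3 knockouts (SE 0.165, adjusted p = 0.822).

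Cdk2 encodes the kinase that cyclin E activates. Cdk2 levels ran from 7.88 to 8.26 in the labelled double knockouts, with a median of 8.05. It was 7.53, 8.24, 8.26 and 8.57 in the Itgb1 knockouts and 7.68, 8.02, 8.07 and 8.09 in the Itgb3 knockouts, against 7.88, 8.16, 8.32, 8.50 and 8.52 in controls. The groups overlapped, with differences of −0.22 (95% interval −0.55 to 0.11), −0.12 (−0.49 to 0.24) and −0.31 (−0.68 to 0.05) from control in the same order.

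Cdkn1b encodes p27, the inhibitor of cyclin E with Cdk2. Levels of Cdkn1b ran from 7.86 to 8.43 in the labelled double knockouts, with a median of 8.39. It was 7.90, 7.96, 8.10 and 8.52 in the Itgb1 knockouts and 7.51, 7.96, 8.21 and 8.43 in the Itgb3 knockouts, against 8.07, 8.14, 8.30, 8.51 and 8.54 in controls. The groups overlapped, and the difference from control was −0.01 in the labelled double knockouts (95% interval −0.35 to 0.32), −0.19 in the Itgb1 knockouts (−0.56 to 0.18) and −0.28 in the Itgb3 knockouts (−0.66 to 0.09). Much of p27 control acts on the protein, which these arrays do not measure.

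Cdkn2c encodes p18, an inhibitor of Cdk4 and Cdk6. The Cdkn2c level ran from 5.73 to 7.11 in the labelled double knockouts, with a median of 6.32. It was 5.95, 6.17, 6.58 and 6.80 in the Itgb1 knockouts and 5.79, 5.96, 6.30 and 6.39 in the Itgb3 knockouts, against 5.19, 5.61, 5.86, 6.13 and 6.14 in controls. Above every control lay 9 of the 14 knockout tumours, again with no such count over all genes. The difference from control was 0.53 in the labelled double knockouts (95% interval 0.04 to 1.01), 0.59 in the Itgb1 knockouts (0.05 to 1.13) and 0.32 in the Itgb3 knockouts (−0.22 to 0.86), and none passed.

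Among the remaining comparisons no member passed. For the labelled double knockouts against the Itgb1 knockouts, 3 genes (0.0211%) passed, and 1744 genes (12.3%) and 1 of 9 members, Ccnd2, had an unadjusted p under 0.05. For the Itgb3 knockouts against the Itgb1 knockouts 0 genes (0%) passed, with 647 genes and 0 members at the unadjusted level. For all Itgb1-floxed against all Itgb1-intact tumours 5 genes (0.0351%) passed, and 43 without labelled double knockout replicate 5. Here Ccnd2 was higher by 0.64 (SE 0.172, adjusted p = 0.146). It passed without that tumour, the labelled double knockout with the lowest Ccnd2 (0.73, adjusted p = 0.0368). With fibroblast and T cell marker levels as covariates it was 0.23 (adjusted p = 0.632).

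The interaction compares the labelled double knockout difference with the sum of both Itgb1 and Itgb3 knockout differences, and 0 genes (0%) passed it, with 1777 genes and 3 members at an unadjusted p under 0.05. For Cdk6 it was 0.83 (SE 0.285, adjusted p = 0.271), since each of the 3 groups lay about equally far below control. For Ccnd2 it was 0.87 (SE 0.343, adjusted p = 0.309), and it was 0.45 with the same covariates (adjusted p = 0.568). For Ccnd3 it was 0.65 (SE 0.234, adjusted p = 0.288).

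Genes around the members in the pathway gave few calls, as all genes did against control (0.386%, 0.00703% and 0% passed in the labelled double, Itgb1 and Itgb3 knockouts). The list of kinase activators, other CDK inhibitors and degradation factors had 21 of 22 genes tested. In it 0 passed against control in any group, with 6, 1 and 0 at an unadjusted p under 0.05 in the labelled double, Itgb1 and Itgb3 knockouts. Of all genes 16.9%, 4.86% and 6.14% were at that level. In the labelled double knockouts the smallest p-values belonged to Cdkn2b (p15, an INK4 inhibitor, 0.52, adjusted p = 0.0844) and Ccnh (the cyclin partner of the CDK-activating kinase, −0.48, adjusted p = 0.0872). In the Itgb1 knockouts they belonged to Cdkn2d (p19, also of the INK4 family, 0.43) and Fbxo31 (an F-box protein that targets cyclin D1, 0.25), both with an adjusted p of 0.982. In the Itgb3 knockouts they belonged to Rnf123 (a ubiquitin ligase for p27, −0.25, adjusted p = 0.830) and Cdkn1c (p57, 0.29, adjusted p = 0.869). Rnf123 rose by 0.55 in the labelled double knockouts against the Itgb3 knockouts (adjusted p = 0.0293), the 1 gene of the list to pass. Of all genes 408 (2.87%) passed this comparison, a count that was 56 without Itgb3 knockout replicate 1.

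The Rb, E2F and DREAM list (Rb family, E2F factors and the DREAM repressor complex) had 19 of 19 genes tested, and 0 passed against control. Unadjusted p-values under 0.05 were 2, 1 and 2 in the labelled double, Itgb1 and Itgb3 knockouts, against 16.9%, 4.86% and 6.14% of all genes. In the labelled double knockouts the genes with the smallest p were E2f4 (a repressor E2F, 0.31, adjusted p = 0.245) and Tfdp2 (an E2F dimer partner, −0.27, adjusted p = 0.261). In the Itgb1 knockouts these were Rbl2 (p130, 0.33) and Rbbp4 (a histone-binding subunit, 0.27), both with an adjusted p of 0.982. In the Itgb3 knockouts these were E2f3 (an activator E2F, −0.39) and Lin52 (a DREAM core subunit, −0.31), both with an adjusted p of 0.796. Lin52 rose by 0.48 in the labelled double knockouts against the Itgb3 knockouts (adjusted p = 0.0451). It was the 1 gene of this list to pass that comparison, which 2.87% of all genes passed.

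E2F targets of S phase entry had 22 of 23 genes tested and 0 passed in any comparison with control or between the labelled double and Itgb3 knockouts. Their median difference from control was −0.07, 0.06 and −0.02 in the labelled double, Itgb1 and Itgb3 knockouts, near the medians of all genes. The genes with the smallest p in the labelled double knockouts were Cdc7 (the kinase that activates replication origins, −0.47, adjusted p = 0.263) and Orc1 (an origin recognition subunit, −0.19, adjusted p = 0.471). In the Itgb1 knockouts these were the nucleotide synthesis genes Rrm1 (0.32) and Tyms (0.27), and in the Itgb3 knockouts the replication genes Pcna (0.22) and Mcm6 (0.30), with adjusted p-values of 0.899 to 0.982.

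The mitosis list had 19 of 20 genes tested, and 0 passed in these comparisons. Its median difference from control was −0.04, 0.18 and 0.14 in the same order, with 9, 17 and 16 of 19 genes above 0. The medians of all genes were 0.03, 0.02 and −0.01. The mean level of the list ran from 7.42 to 8.55 in controls. Every Itgb1 knockout (7.93 to 8.36) and Itgb3 knockout (7.57 to 8.32) lay within that range. The labelled double knockouts ran from 7.16 to 8.25, and replicate 5 (7.16) lay below every control. Smallest in p were Birc5 (survivin, 0.41) and Cdk1 (the mitotic kinase, −0.28) in the labelled double knockouts, Mki67 (the proliferation antigen, 0.44) and Plk1 (a mitotic kinase, 0.34) in the Itgb1 knockouts, and Aurka (a spindle kinase, 0.46) and Bub1 (a checkpoint kinase, 0.36) in the Itgb3 knockouts.

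Transcription inputs to the D cyclins and p27 had 21 of 24 genes tested, and 0 passed against control. In the labelled double knockouts 19 of 21 averaged above control, with a median of 0.28 against 0.03 for all genes, and 5 had an unadjusted p under 0.05 (16.9% of all genes did). In the same comparison 10 of 10 fibroblast markers (median 0.57), 9 of 9 macrophage markers (0.21) and 9 of 9 endothelial markers (0.28) averaged above control, and their part in this shift was not tested. In the Itgb1 and Itgb3 knockouts 12 and 9 of 21 averaged above control, with medians of 0.06 and −0.07. Foxo4 (an activator of p27 transcription, 0.33, adjusted p = 0.138) and Ctnnb1 (beta-catenin, 0.39, adjusted p = 0.173) had the smallest p in the labelled double knockouts. Creb1 (0.35) and Cebpb (0.28) did in the Itgb1 knockouts, and Rela (the p65 subunit of NF-kappa-B, −0.34) and Sp1 (−0.22) in the Itgb3 knockouts. Rela rose by 0.49 in the labelled double knockouts against the Itgb3 knockouts (adjusted p = 0.0454). It too was the 1 gene of its list to pass that comparison, which 2.87% of all genes passed.

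Relations of Ccne1 and Cdk2 with the S phase and mitosis genes, taken within groups, did not pass after adjustment over the 117. For Ccne1 and the E2F targets r was 0.69 (permutation p = 0.00281, adjusted p = 0.0869) and rho was 0.72 (permutation p = 0.00219, adjusted p = 0.0652), and r was 0.61 without labelled double knockout replicate 5 and control replicate 1. With the mitosis list the r of Ccne1 was 0.71 (permutation adjusted p = 0.0869). For Cdk2 and the E2F targets r was 0.62 (permutation adjusted p = 0.183) and rho was 0.75 (permutation adjusted p = 0.0652). For Ccnd1 and the E2F targets r was 0.42 (permutation adjusted p = 0.467).

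**Figure D4:**
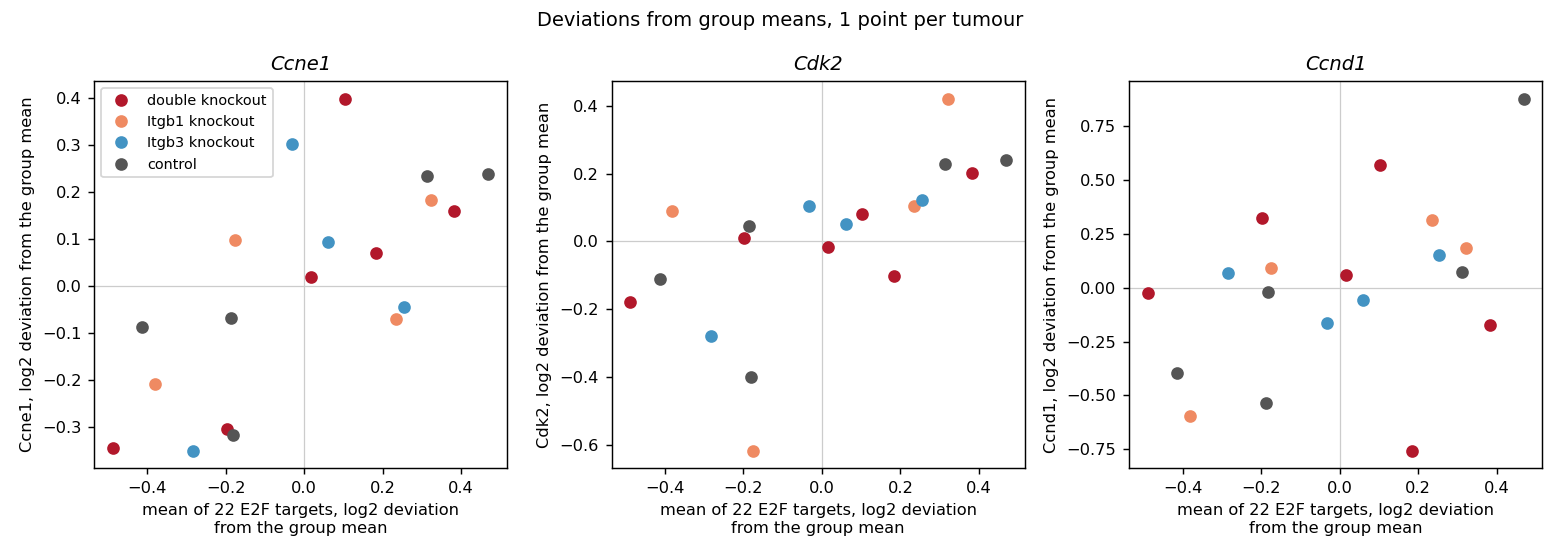
Log2 levels of Ccne1, Cdk2 and Ccnd1 (vertical axes) against the mean log2 level of the 22 E2F targets tested (horizontal axes), both as deviations from group means; points are the 19 tumours, coloured by group. The r is 0.69 for Ccne1, 0.62 for Cdk2 and 0.42 for Ccnd1, and none passed after adjustment.

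The promoter windows of Ccne1 and Cdk2 are shown beside these relations, since E2F is known to act at promoters of G1 and S phase genes. Windows of 300 bases from RefSeq (GRCm38.p6) were held for 7 of the 10 members. They were searched on both strands for the E2F-type motifs TTTCCCGC, TTTCGCGC, TTTGCCGC and TTTGGCGC, none of which holds another. A match was found in 744 of 32851 windows (2.26%), in 8 of 19 E2F target genes with a window, and in 1 of 9 member windows. That window was Cdk2's, at chr10:128705002-128705301 on the minus strand, with the match in capitals. It begins 140 bases before the start and lies on the strand opposite to the gene. The Ccne1 window, at chr7:38107441-38107740 on the minus strand, held no match with these letters.
Cdk2 promoter: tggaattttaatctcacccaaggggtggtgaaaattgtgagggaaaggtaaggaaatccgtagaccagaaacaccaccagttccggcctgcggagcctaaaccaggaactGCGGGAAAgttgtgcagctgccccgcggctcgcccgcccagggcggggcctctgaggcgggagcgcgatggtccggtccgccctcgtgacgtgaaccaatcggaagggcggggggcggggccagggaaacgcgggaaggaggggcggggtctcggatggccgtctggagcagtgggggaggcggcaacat
Ccne1 promoter: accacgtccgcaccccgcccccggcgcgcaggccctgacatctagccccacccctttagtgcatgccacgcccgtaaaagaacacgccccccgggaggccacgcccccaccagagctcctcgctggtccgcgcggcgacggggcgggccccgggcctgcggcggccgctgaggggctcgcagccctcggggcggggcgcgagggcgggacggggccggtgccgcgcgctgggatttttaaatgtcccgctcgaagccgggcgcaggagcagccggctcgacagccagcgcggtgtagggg

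Among the 36 pairs of members 0 passed after adjustment (permutation, smallest adjusted p = 0.329 by r and 0.245 by rho), and 23 correlations were above 0. Within groups the highest was 0.57, between Cdk4 and Cdk6. Next came 0.53 between Ccnd1 and Cdkn2c and 0.51 between Cdk4 and Cdk2. The lowest were −0.44 between Ccnd1 and Ccnd3, −0.37 between Ccnd3 and Cdkn2c and −0.36 between Cdk4 and Cdkn2c.

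Over all 19 tumours, the genes whose levels ran most like a member's are given as a description, by Pearson r. Other members, predicted genes, clones and small RNAs were left out of this ranking. Ccnd2 ran most like Spon1 (0.91), which encodes the matrix protein spondin 1, and Mxra8 (0.90). Ccnd1 ran most like Tgfb1 (0.79), which encodes TGF-beta 1, and Cttn (0.79), which encodes cortactin. Ccnd3 ran most like Sdhaf2 and Dbnl (both 0.83). Cdk4 ran most like Fam185a (0.87) and Ttc27 (0.85), and Cdk6 like Fam185a (0.73) and Lim2 (0.72). Ccne1 ran most like Suco (0.83) and Sde2 (0.79). Cdk2 ran most like Brip1 (0.82), a DNA repair helicase gene, and Shmt1 (0.82), a gene of folate metabolism. Cdkn1b ran most like Bhlhe40 (0.85) and Efna1 (0.84), and Cdkn2c like Pxylp1 (0.80) and Myh11 (0.79).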

How the data were processed

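Total RNA from 19 tumours was hybridised to Affymetrix whole-transcript arrays. The authors deposited normalized log2 intensities, with a value for each of 41345 probe sets on every array. They came from Affymetrix Expression Console, whose version the submitters' processing notes do not state. The background correction, summarization and genome build are likewise not given in the sources used. The log2 values, from 0.542 to 13.7 with array medians of 4.32 to 4.48, were taken without further normalization. Arrays have no read depth, and their number limits the precision. Median correlations between arrays were at least 0.969, and no pair exceeded 0.984.

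GEO's platform annotation gave 23521 probe sets 1 symbol, 1814 several and 16010 none. A probe set with 1 symbol entered if 4 or more arrays were at or above 4.38, the median value deposited, and the set with the highest mean stood for its gene. That left 14231 genes, and each measured member had 1 probe set. A limma 3.58.1 fit (R 4.3.3, lmFit and eBayes) held 1 mean per group for all 19 arrays, with 15 residual degrees of freedom (18.7 after moderation). P-values were two-sided and adjusted by Benjamini-Hochberg across the genes tested. Relations across tumours used deviations from group means with 100000 permutations within groups. The fit was tested on simulated data.

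The members and lists were chosen with earlier results of these data known. All members are named, with each list's genes that passed and, against control, its 2 smallest p-values. Also named are the 2 genes most like each member, leaving aside other members, predicted genes, clones and small RNAs. Scaling, filters, covariates, array weights, a plain t statistic and leaving out each array were alternatives.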

Additional observations from a re-analysis of the deposited data

Results flagged for a closer look

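Of 36 sets of values of 1 gene in 1 group that were looked at, 2 held a tumour far from the others of its group, and chance flags about 1 in 20. Cdk4 was at a log2 level of 10.45 in double knockout replicate 4, the highest of that group, and the nearest tumour was at 10.03. Cdkn1b was at 7.86 in double knockout replicate 2, the lowest of its group, and the nearest was at 8.32.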

How the results depend on the processing

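Over 31 alternative settings (19 of them leaving out 1 array), 2484 member differences were recomputed. Of these 2396 kept their direction and side of the threshold, 0 reversed, and 76 changed sign within 1 SE of 0. A further 6 were no longer past the threshold and 6 newly were. In many settings a difference could not move, such as when an array of a group not compared was left out. A difference within 1 SE of 0 that did not pass could not count as reversed. The number kept is therefore no measure of stability. With a mitosis covariate, 1 member, Cdk6, passed for the labelled double knockouts against control (adjusted p = 0.0426), and leaving out 1 array gave 0 to 1 members. For the labelled double against the Itgb3 knockouts, 0 members passed with only the groups compared, 0 with fibroblast and T cell covariates, and 0 to 1 leaving out 1 array. Leaving out 1 array also gave 0 to 1 members for Itgb1-floxed against Itgb1-intact tumours, and 0 to 1 for any knockout against control (Cdk6 without double knockout replicate 4, −0.86, adjusted p = 0.0446).

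Ccnd2 passed for the labelled double against the Itgb3 knockouts in 25 of 31 settings, with adjusted p-values of 0.00401 to 0.393 and differences of 0.93 to 1.26 leaving out 1 array. Cdk6 passed for the labelled double knockouts against control in 3 of 31 (adjusted p = 0.0217 to 0.170). Centring arrays on their medians moved the median of all genes by 0.11 for the labelled double against the Itgb3 knockouts and by 0.11 for the interaction. No paired analysis was possible because the labels do not pair tumours across groups.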
